A study of Drosophila melanogaster with 4 samples.

Results

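The bithorax complex holds the 3 Hox genes Ubx, abd-A and Abd-B, which encode homeodomain transcription factors that give the posterior thorax and the abdominal segments of the fly their identity. Here it was taken as the interval on chromosome arm 3R from position 12480000 to 12810000 (dm3, 330 kb), and its members are the ChIP-seq peaks that overlap that interval by at least 1 bp. There were 23 such peaks out of 3472 in the series: 10 of 2067 CP190 peaks, 6 of 618 Ibf1 peaks and 7 of 787 Ibf2 peaks. Chromatin immunoprecipitation with sequencing had been done in Drosophila melanogaster S2 cells, an untreated cultured line of embryonic origin, with 1 library each for an antibody against CP190, an antibody against the product of CG8436 (Ibf1) and an antibody against the product of CG9740 (Ibf2). The authors called peaks of each library against 1 Input library of genomic DNA. With no replicates no difference was tested, and the lists hold positions without heights, so peak width is the only value a peak carries and read depth is unknown. The lists measure no expression, so neither the S2 label nor the activity of the Hox genes could be checked in them.

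In the complex, each body segment's expression pattern is set by its own stretch of regulatory DNA, and neighbouring stretches are kept apart by boundary elements (insulators), among them Fub, Mcp, Fab-7 and Fab-8. Loss of a boundary lets neighbouring regulatory stretches act in the wrong segment and gives homeotic transformations. CP190 is a zinc finger protein that is brought to many insulators by DNA-binding partners, and Ibf1 and Ibf2 are named for insulator binding. Along 3R the genes lie in the order Ubx, abd-A, Abd-B. In the RefSeq gene table (Release 6) 7 listed genes lie between Ubx and abd-A, of which 2 are protein-coding (CG31275 and Glut3), and 6 lie between abd-A and Abd-B, of which 1 is protein-coding (MSAmiP). The others include the non-coding RNA genes bxd, iab4 and iab8. The protein-coding neighbours outside the complex are modSP next to Ubx and VhaM9.7-d next to Abd-B. That table is of another build than the peaks, and an annotation of dm3 was not used here. The peaks are therefore placed by their distance from the Ubx end of the interval, and no peak is assigned to a gene body, a promoter or a named boundary.

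The 23 peaks formed 11 separate regions when overlapping peaks of the 3 lists were joined. All 3 proteins were called at 5 of them, CP190 with Ibf2 at 1, CP190 alone at 4, and Ibf1 with Ibf2 but without CP190 at 1. No region was called for CP190 with Ibf1 alone, for Ibf1 alone or for Ibf2 alone (0 of 11 each, 95% exact upper limit 28.5%). On the rest of 3R these classes were also rare, at 0 of 521 regions for CP190 with Ibf1 alone and for Ibf1 alone and 3.65% for Ibf2 alone. CP190 with Ibf2 made up 4.41% there and both Ibf proteins without CP190 3.26%, against 9.09% for each in the complex (1 of 11 regions, 0.23 to 41.3). Each Ibf1 peak in the complex lay on an Ibf2 peak. CP190 regions with and without Ibf were interspersed from region 1 to region 8, and regions 8 to 11 each carried at least 1 Ibf protein, as the map of peaks shows.

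**Figure D1:**
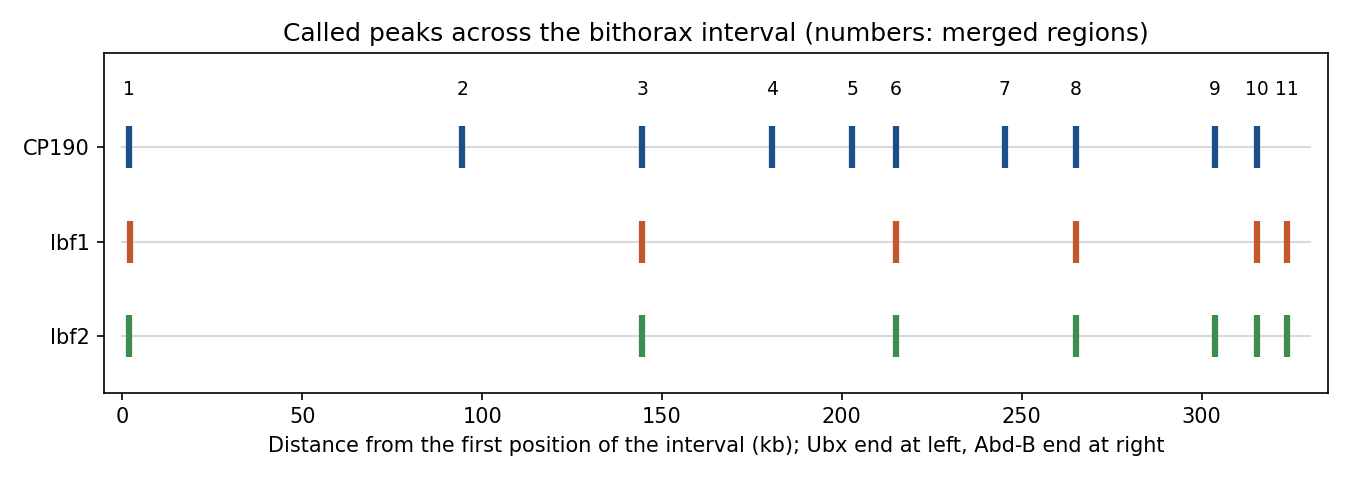
Peaks of each antibody (rows) across the bithorax interval, by distance of the peak midpoint from the first position of the interval in kb; each bar is 1 peak and the numbers are the 11 merged regions. Regions 1, 3, 6, 8 and 10 carry all 3 proteins, region 11 carries both Ibf proteins without CP190, and no peak lies between region 1 at 1.9 kb and region 2 at 94.5 kb.

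Region 1, at the Ubx end, spanned 12481569 to 12482256 and lay 1.9 kb from the start of the interval. The CP190 peak spanned 646 bp, that of Ibf1 335 bp and that of Ibf2 688 bp, each the widest of its list in the complex. Among whole lists the CP190 peak ranked 48 of 2067 by width, the Ibf1 peak 88 of 618 and the Ibf2 peak 14 of 787. The Ibf2 peak was wider than the CP190 peak here, whereas in the other regions with both it was narrower. The Ibf1 peak lay toward the right edge of the region, with its midpoint 149.5 bp from that of CP190 and 146.5 bp from that of Ibf2.

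Region 2 was a CP190 peak of 308 bp at 12574310 to 12574617, 94.5 kb from the Ubx end. The 92.1 kb between it and region 1 was the longest stretch of the complex without a peak in any list. Region 3, at 12624161 to 12624784 (144.5 kb), again carried all 3 proteins. Its CP190 peak was broad (624 bp, rank 58 of 2067), while the peaks of Ibf1 (139 bp) and Ibf2 (350 bp) were set toward its left side. The Ibf midpoints lay 10.5 bp from each other but 145.5 bp (Ibf1) and 135 bp (Ibf2) from the CP190 midpoint.

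Regions 4 and 5 were the narrowest CP190 peaks in the complex and had no Ibf peak. Region 4 measured 232 bp at 12660448 to 12660679 (180.6 kb), and region 5 measured 173 bp at 12682872 to 12683044 (203 kb). Region 6 followed 11.9 kb after region 5, at 12694952 to 12695273 (215.1 kb). It carried all 3 proteins, but its Ibf peaks were the narrowest of the complex: the Ibf1 peak was 33 bp (rank 592 of 618) and the Ibf2 peak 159 bp (rank 615 of 787), beneath a CP190 peak of 322 bp. The Ibf1 call at region 6 is lost when peaks under 50 bp are left out, which leaves CP190 with Ibf2 there.

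Region 7 was a CP190 peak of 247 bp at 12725129 to 12725375 (245.3 kb), without Ibf. Region 8, at 12744809 to 12745154 (265 kb), carried all 3 proteins on nearly the same centre. Its CP190 peak was 346 bp, its Ibf1 peak 214 bp and its Ibf2 peak 254 bp, and the Ibf1 and Ibf2 midpoints lay 7 bp apart. Regions 7 and 8 were 19.4 kb apart. As elsewhere from region 1 to region 7, a CP190 site without Ibf and a site with both Ibf proteins were direct neighbours. How often such sites are neighbours on the rest of 3R was not computed.

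Regions 9, 10 and 11 lay close together at the Abd-B end, with gaps of 11.4 and 8.09 kb between them. Region 9, at 12783523 to 12783851 (303.7 kb), combined 329 bp of CP190 peak with 170 bp of Ibf2 peak, and was the single region of the complex with Ibf2 but no Ibf1. Region 10, at 12795260 to 12795637 (315.4 kb), carried all 3 proteins. The CP190 peak there spanned 378 bp, that of Ibf1 279 bp and that of Ibf2 314 bp, and their midpoints were at most 18 bp apart. Region 11, at 12803723 to 12803899 (323.8 kb), had no CP190 peak, and its Ibf1 peak of 108 bp sat inside the Ibf2 peak of 177 bp. The gap between regions 10 and 11 was the shortest in the complex.

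**Figure D2:**
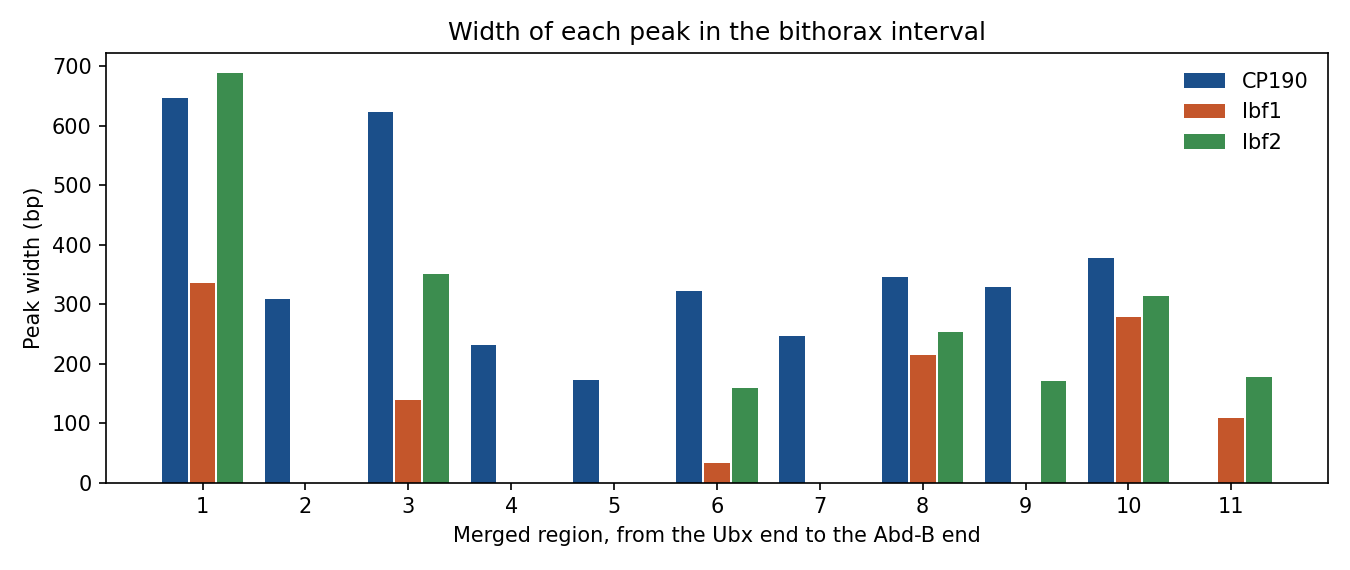
Width in bp of each of the 23 peaks, by merged region from the Ubx end (1) to the Abd-B end (11); each bar is 1 peak and a missing bar means that the list has no peak there. The widest CP190 peaks are in regions 1 and 3 (646 and 624 bp), and the Ibf1 peak of region 6 is the narrowest bar at 33 bp.

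Of the 10 CP190 peaks in the complex, 6 overlapped an Ibf2 peak (60%, 95% exact interval 26.2 to 87.8), against 28.7% of the 485 CP190 peaks on the rest of 3R (24.7 to 32.9). An Ibf1 peak overlapped 5 of the 10 in the complex (50%, 18.7 to 81.3), against 23.9% on the rest of 3R (20.2 to 28.0). The intervals in the complex contain the value of the rest of 3R for Ibf2 and for Ibf1. With 10 peaks the shares in the complex are imprecise, and their difference from the rest of 3R was not tested. When peaks narrower than their list median were left out, Ibf1 overlapped 28.6% of 7 CP190 peaks in the complex, against 24.4% of 250 on the rest of 3R, and Ibf2 overlapped 42.9% in the complex, against 29.6%. Exact intervals here cover counting error only and treat peaks as independent. In the other direction, CP190 overlapped 5 of 6 Ibf1 peaks in the complex (83.3%), against 86.6% on the rest of 3R, and 6 of 7 Ibf2 peaks (85.7%), against 79.4%. An Ibf2 peak overlapped all 6 Ibf1 peaks in the complex, against 100% of 134 on the rest of 3R. An Ibf1 peak overlapped 6 of 7 Ibf2 peaks in the complex, against 76% of 175 on the rest of 3R.

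Counted by region, all 3 proteins were called at 45.5% of the 11 regions in the complex (16.7 to 76.6) and at 22.3% of the 521 regions on the rest of 3R (18.8 to 26.1). CP190 alone made up 36.4% in the complex (10.9 to 69.2) and 66.4% on the rest of 3R (62.2 to 70.5). Both intervals in the complex again contain the value outside. Regions of all 3 lists and regions of CP190 alone numbered 5 and 4 in the complex, and 116 and 346 on the rest of 3R. Without peaks under 50 bp they numbered 4 each in the complex.

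**Figure D3:**
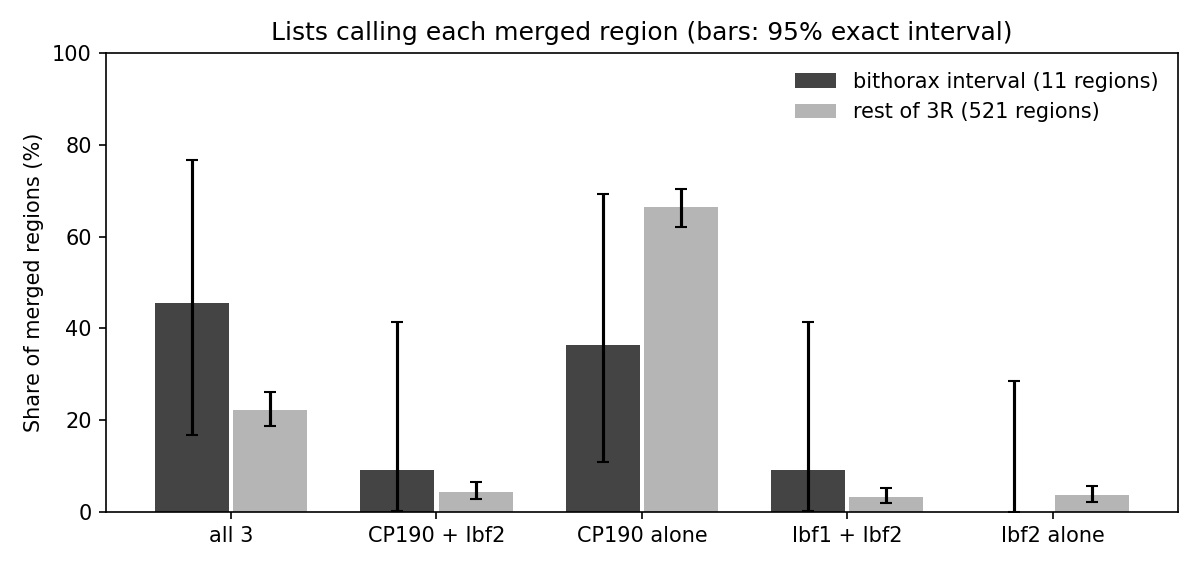
Share of merged regions in percent by the lists that call them, in the bithorax interval (dark bars, 11 regions) and on the rest of 3R (light bars, 521 regions); error bars are 95% exact (Clopper-Pearson) intervals. Regions of all 3 proteins make up 45.5% in the interval and 22.3% outside it, and the wide intervals of the dark bars contain the height of the light bars.

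CP190 peaks with an Ibf peak were wider than those without one in the complex, with no overlap between these small groups. The 6 with Ibf measured 322 to 646 bp (median 362 bp) and the 4 without Ibf 173 to 308 bp (median 239.5 bp). The gap between the groups ran only from 308 bp at region 2 to 322 bp at region 6. The Ibf peaks of region 6 were the narrowest of the complex. On the rest of 3R the medians were 332 bp for 139 CP190 peaks with Ibf and 255 bp for 346 without. The ranges there overlapped (40 to 1041 bp and 1 to 838 bp), but ranges of groups so unlike in number cannot be compared directly. All 10 CP190 peaks in the complex had a median of 325.5 bp, against an interquartile range of 191 to 343 bp on the rest of 3R. The 6 Ibf1 peaks in the complex (33 to 335 bp) had a median of 176.5 bp, below the interquartile range of 189.3 to 298.8 bp on the rest of 3R. The 7 Ibf2 peaks (159 to 688 bp) had a median of 254 bp, within the interquartile range of 204.5 to 356.5 bp on the rest of 3R. Set against the median of the whole list, 7 of 10 CP190 peaks in the complex reached it, as did 2 of 6 Ibf1 peaks and 3 of 7 Ibf2 peaks.

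The peaks of the 5 regions with all 3 proteins were nested. Ibf1 was contained in Ibf2 at 5 of 5, and Ibf2 was contained in CP190 at 4 of 5 (80%, 28.4 to 99.5), region 1 being the exception. On the rest of 3R Ibf1 lay inside Ibf2 in 115 of 116 such regions (99.1%), and Ibf2 lay inside CP190 in 38 (32.8%, 24.3 to 42.1). With 5 regions in the complex the exact interval of each pair contains the value of the rest of 3R, and the difference was not tested. The Ibf1 peak had a median of 48.7% of the Ibf2 width in the complex and 81.4% on the rest of 3R, and the Ibf2 peak 73.4% of the CP190 width in the complex and 99.5% on the rest of 3R. Within the complex the Ibf1 width ran from 20.8% of the Ibf2 width at region 6 to 88.9% at region 10, so the 5 regions differed widely among themselves. Width depends on the calling threshold and on library depth as well as on the signal, and their part in these differences was not tested.

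Peak density was compared between the complex and 82 windows of the same 330 kb length laid end to end over the rest of 3R. The complex held 6 Ibf1 peaks (95% exact Poisson interval 2.2 to 13.1), against a mean of 1.59 and a maximum of 5 per window, and 0% of the windows reached its count. It held 7 Ibf2 peaks (2.81 to 14.4), against a mean of 2.07 and a maximum of 6, and 0% of the windows reached its count. For both Ibf lists the lower Poisson limit lay above the window mean. These limits treat the peaks of a list as independent, and the difference from the windows was not tested. Every Ibf1 peak of 3R lay on an Ibf2 peak, so the Ibf counts are not independent of each other. The complex held 10 CP190 peaks (4.8 to 18.4), against a mean of 5.85, and 12.2% of the windows held 10 or more. In merged regions the complex held 11 (5.49 to 19.7), against a mean of 6.26, and 11% of the windows held as many or more. By the length that peaks covered, the lists ranked otherwise. CP190 peaks covered 3605 bp of the complex, against a window median of 1514 bp, a length reached in 2.44% of the windows. Ibf1 peaks covered 1108 bp of the complex, against 286.5 bp, a length reached in 4.88% of the windows. Ibf2 peaks covered 2112 bp, against 492.5 bp, a length reached in 1.22%. The complex was thus first by count for the Ibf lists but by covered length for none of the 3 lists.

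**Figure D4:**
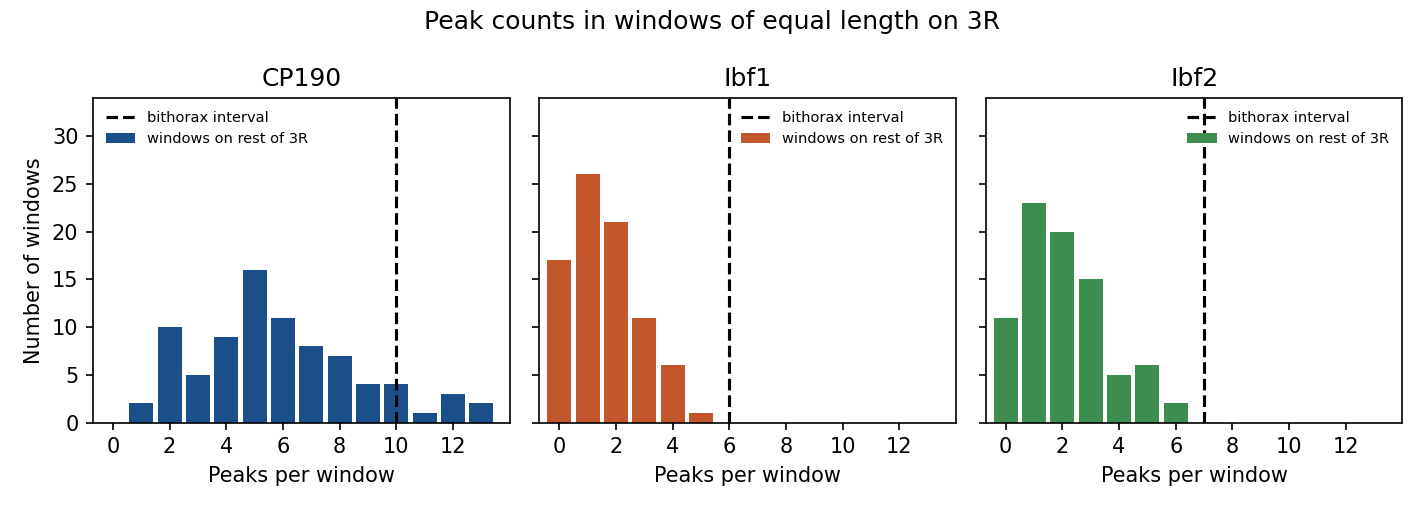
Number of 330 kb windows on the rest of 3R (vertical axis) by the number of peaks they hold (horizontal axis) for CP190, Ibf1 and Ibf2; the dashed line marks the bithorax interval. The interval lies beyond every window for Ibf1 (6 against at most 5) and Ibf2 (7 against at most 6), and within the upper part of the windows for CP190 (10, with windows reaching 13).

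The first place of the complex for Ibf peaks depended on its edges, on narrow peaks and on the windows compared. Regions 1 and 11 lie near the ends of the interval. With the interval narrowed by 10 kb at both ends, it held 4 Ibf1 and 5 Ibf2 peaks, and 9 and 7 of 88 windows of the new length tied with it, though none held more. The lower Poisson limits of the narrowed interval, 1.09 for Ibf1 and 1.62 for Ibf2, then lay below the window means of 1.51 and 1.97. When peaks narrower than their list median were left out, 2 Ibf1 and 3 Ibf2 peaks were counted in the complex. For Ibf1, 7 of the 82 windows then held more and 16 tied with it. For Ibf2, 1 held more and 12 tied. Windows moved in steps of 10 kb held up to 6 Ibf1 and 8 Ibf2 peaks.

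By class of region, the complex held 5 regions of all 3 lists, a count reached in 1.22% of the windows. Among these 5 regions, region 1 lay 1.9 kb from the start of the interval and region 6 had an Ibf1 peak of 33 bp. Without peaks under 50 bp the complex held 4 such regions, and the windows were not recounted by class. With all peaks it held 4 regions of CP190 alone, a count reached or passed in 56.1% of the windows. It also held 1 region of both Ibf proteins without CP190, a count reached or passed in 15.9%. With all peaks, the higher count of the complex thus lay in the regions with Ibf. Its number of CP190-only regions was close to the window mean of 4.18. The exact intervals on the shares of both classes contained the values of the rest of 3R. The 1 window that tied with the complex in regions of all 3 lists, named after its values were seen, spanned 11819998 to 12149998, so it ended 330 kb before the complex. It held 12 CP190, 5 Ibf1 and 6 Ibf2 peaks. The windows with most merged regions on 3R started at 16770013 (14 regions), 18090017 (13) and 25680040 (13), and they held 6, 4 and 3 Ibf2 peaks, fewer than the complex.

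Among the 56 windows with at least 5 CP190 peaks, the share of CP190 peaks with an Ibf peak had a median of 25% and a maximum of 60%. The 60% of the complex (6 of 10) was reached in 5.36% of these windows. Those 3 windows, named after their values were seen, start at 599964, 19080020 and 25020038 and each hold 3 of 5 CP190 peaks with Ibf.

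Of the 11 regions, 3 had their midpoint in the part of the interval nearer the Ubx end and 8 in the part nearer the Abd-B end. By list the split was 3 against 7 CP190 peaks, 2 against 4 Ibf1 peaks and 2 against 5 Ibf2 peaks. The same split was not computed for the windows of 3R, so how common it is there is unknown. The 10 gaps between neighbouring regions ran from 8.09 to 92.1 kb with a median of 26.02 kb, against a median of 33.9 kb (0.26 to 406.2 kb) over 519 gaps on the rest of 3R. Gaps over 20 kb made up 60% in the complex and 64.5% outside it. The longest gap of the complex was passed by 96 of the 519 gaps outside it. Gaps in the complex had to fit within 330 kb and leave out those of 30.8 and 101.8 kb to the nearest regions outside. The gaps on the rest of 3R had no such limit, so these values are not taken alike. Between Ibf2 peaks alone, the longest gap ran from region 1 to region 3, at 141.9 kb.

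Outside the complex, the nearest region before it, at 12450346 to 12450794, lay 30.8 kb from region 1, and the nearest after it, at 12905654 to 12906051, lay 101.8 kb from region 11. Both carried all 3 proteins. The window directly before the complex held 7 CP190, 3 Ibf1 and 5 Ibf2 peaks, and the one directly after it held 4 CP190, 1 Ibf1 and 1 Ibf2 peaks.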

How the data were processed

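ChIP-seq peak lists for CP190, CG8436 (Ibf1) and CG9740 (Ibf2) in S2 cells were analysed, with 1 library per antibody. The authors called peaks per library against the Input library, per the series' design text. Per the submitters' processing notes, positions are in dm3 and the software named is CASAVA 1.8.2. No aligner, peak caller or threshold is stated (not given in the sources used here). The deposited files hold chromosome, start and end only, and none of the values is a score or height. Intervals were read as closed, since the start equals the end in some peaks, and positions are printed as deposited. Whether starts count from 0 or 1 could not be told.

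The interval was given by position. Peaks overlapping by at least 1 bp were merged into regions. Windows of the interval's length were laid outward from it between the first and last called position of 3R, and a peak counted in each window it touched. Shares carry 95% Clopper-Pearson intervals. Counting and window steps were tested on simulated data. Each region of the interval is named, and outside it the nearest region on each side and the 3 windows with most regions. The members, lists and comparisons were chosen with earlier results of these data known. Alternatives covered the overlap rule, merging, interval ends, windows and narrow peaks; the density with moved interval ends was added after seeing the data. Sequences and dm3 gene positions were not used here. Python 3.11.15, NumPy 2.4.6, SciPy 1.17.1 and matplotlib 3.10.9 were used.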

Additional observations from a re-analysis of the deposited data

How the results depend on the processing

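Of 84 recomputed values, 76 stayed within 1.5 times the reported count or within the 95% exact interval of the reported share. Several could not change, so the tally does not measure robustness. All peaks lay wholly inside the interval, and its shortest gap was 8.09 kb. The nearest regions outside lay 29.2 and 95.7 kb from its ends. The counts of whole peaks, of regions merged within 500 bp and of peaks in the widened interval were therefore fixed. The shares for either Ibf protein repeated those for Ibf2. When peaks narrower than their list median were left out, the complex held 2 Ibf1 peaks, 3 Ibf2 peaks and 7 merged regions, and the share of windows with fewer peaks was 71.95% for Ibf1 and 84.1% for Ibf2, against 100% for each with all peaks. With the interval narrowed by 10 kb at both ends, that share was 89.8% for Ibf1 and 92.05% for Ibf2. Without peaks under 50 bp, 2 regions carried CP190 with Ibf2, as the 33 bp Ibf1 peak of region 6 dropped out. No paired analysis was possible because each antibody had 1 library. Leaving out a replicate was likewise not possible. Depth per peak is unknown, so a missing peak does not show that a protein was absent.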
